A study of Mus musculus with 11 samples.

Results

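Thrombospondins are a small family of secreted glycoproteins, and 4 of their genes, Thbs1, Thbs2, Thbs3 and Thbs4, were followed through the mouse cortex after a stroke. The members were chosen by gene symbol from a list of the 4, and all were found among the 22377 genes of the table. The only measured value in that rule is the mean level over the 11 libraries, in CPM (tags scaled to a common library total), which settles which row to take where a symbol is duplicated, and none of the 4 symbols was. Because the family was put forward with earlier results of these data known, its levels and differences are given as a description and carry no test.

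Thrombospondins bind calcium, collagens and cell surface receptors, and act as signals between cells rather than as structural matrix. Thbs1 and Thbs2 encode trimers with properdin-like repeats. Immature astrocytes secrete both, and they promote the formation of excitatory synapses through the calcium channel subunit encoded by Cacna2d1, which is also the receptor of gabapentin. Thbs1 is stored in platelets, activates latent TGF-beta and restrains vessel growth. Thbs3 and Thbs4 encode pentamers without those repeats. Thbs4 is made by reactive astrocytes and, in mice, has been linked to the astrocytes that the subventricular zone supplies after cortical injury.

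The cortex came from male C57BL/6N mice, and CAGE (cap analysis of gene expression) counted tags at the 5′ ends of capped RNA, so that a level is a number of transcript starts and is not divided by gene length. Photothrombosis (PT) had clotted the vessels of the left parietal cortex, by light applied after the dye rose bengal. One library is labelled naive and untreated. The other 10 hold both sides of the cortex, infarcted and non-infarcted, 7 d after PT, 7 d with levetiracetam (LEV, an anti-seizure drug), 1 m, 1 m with LEV, and 2 m with LEV withdrawn for 2 weeks. RNA came from whole cortex, so the lesion and the tissue around it are mixed. The design text gives ages of 8 to 10 and 65 to 85 weeks without assigning them to libraries, and it has LEV begun 1 month after the stroke, given for 2 weeks in drinking water at 5 mg/mL and withdrawn for 1 week. The labels place LEV at 7 d as well and were followed here. The design also names EEG electrodes and low doses of the convulsant pentylenetetrazol, without saying which libraries' mice received them. How many mice stand behind a library is not labelled, and each group is 1 library, so the intervals below cover counting error alone and say nothing of the spread between mice.

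Library totals ran from 12928291 to 21000367 tags, and 3 tags were worth 0.143 to 0.232 CPM. The cortical neuron markers Slc17a7, Cux2 and Tbr1 were counted in every library, with Tbr1 at 49.9 to 85.1 CPM. A few libraries stood apart. The summed excitatory neuron markers were 1888 and 2158 CPM in the infarcted and non-infarcted 1 m LEV libraries, against 842 to 1366 CPM in the other 9. Choroid plexus markers summed to 356 CPM in the naive library and 200.3 CPM in the non-infarcted 1 m LEV library, and to 12.7 to 29.1 CPM elsewhere. Striatal markers were present in all 11 libraries, at 330 to 619 CPM. The share of tags lying in genes was lowest in the non-infarcted 2 m library, at 92.3%, and 94.2% to 97.3% in the rest.

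In GENCODE M21 on GRCm38, Thbs1 lies on chromosome 2 (118111876 to 118127133, plus strand), Thbs2 on chromosome 17 (14665500 to 14694235, minus strand), Thbs3 on chromosome 3 (89215180 to 89226837, plus strand) and Thbs4 on chromosome 13 (92751590 to 92794818, minus strand), all protein coding. Since CAGE counts transcript starts, the windows around the annotated starts are where such tags would begin, and they are shown for the 3 members with an entry in the RefSeq promoter set of GRCm38.p6. Each runs from 250 bases before the start to 50 after it, 5′ to 3′ on the gene's strand, and capitals mark matches on either strand to TATAAA or GGGCGG. Thbs1 has no entry. The windows are Thbs2 at chr17:14694213-14694512 (minus strand), Thbs3 at chr3:89214930-89215229 (plus strand) and Thbs4 at chr13:92794769-92795068 (minus strand).
Thbs2: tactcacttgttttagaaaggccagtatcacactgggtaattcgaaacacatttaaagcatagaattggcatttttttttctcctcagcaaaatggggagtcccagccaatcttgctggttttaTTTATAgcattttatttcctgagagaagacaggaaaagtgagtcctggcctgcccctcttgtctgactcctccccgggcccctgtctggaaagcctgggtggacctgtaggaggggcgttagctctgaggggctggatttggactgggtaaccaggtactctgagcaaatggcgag
Thbs3: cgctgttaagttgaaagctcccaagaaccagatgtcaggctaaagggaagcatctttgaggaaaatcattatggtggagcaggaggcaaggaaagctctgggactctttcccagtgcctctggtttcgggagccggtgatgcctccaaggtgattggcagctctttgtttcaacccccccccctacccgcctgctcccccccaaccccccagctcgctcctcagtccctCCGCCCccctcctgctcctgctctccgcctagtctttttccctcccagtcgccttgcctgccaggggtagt
Thbs4: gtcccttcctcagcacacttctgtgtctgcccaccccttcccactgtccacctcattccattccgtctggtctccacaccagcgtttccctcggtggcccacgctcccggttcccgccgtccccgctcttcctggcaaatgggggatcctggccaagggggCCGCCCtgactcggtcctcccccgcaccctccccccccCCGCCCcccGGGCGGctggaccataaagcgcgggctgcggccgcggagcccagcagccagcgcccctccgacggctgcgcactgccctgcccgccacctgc

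The windows differ in base composition, with a GC content of 48.3% for Thbs2, 59% for Thbs3 and 72% for Thbs4, beside a median of 53% over 32544 distinct promoter windows. Thbs2 holds 1 match to the TATA motif TATAAA, beginning 126 bases before the start, and 13.6% of all windows hold one. Thbs3 holds 1 match to the GC box GGGCGG, 21 bases before the start, and Thbs4 holds 3, at 89, 51 and 42 bases, beside 35.9% of all windows with a match. None of the 3 windows matches the AP-1 motif TGANTCA (7.79% of windows), the STAT motif TTCNNNGAA (8.33%) or the CArG box of serum response factor (1.64%), and no matches overlapped. These matches describe letters in a window and were not tied to any factor.

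The 4 genes followed 4 different courses on the infarcted side. Thbs1 was high at 7 d, near the naive level at 1 m and high again at 2 m, where both sides were high. Thbs2 was high at 7 d and much lower from 1 m on. Thbs4 was at a steady, raised level in all 5 states, and Thbs3 was slightly higher than on the other side throughout. In these bulk libraries a change in the number of cells that make a transcript and a change in the RNA each cell makes cannot be told apart.

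**Figure D1:**
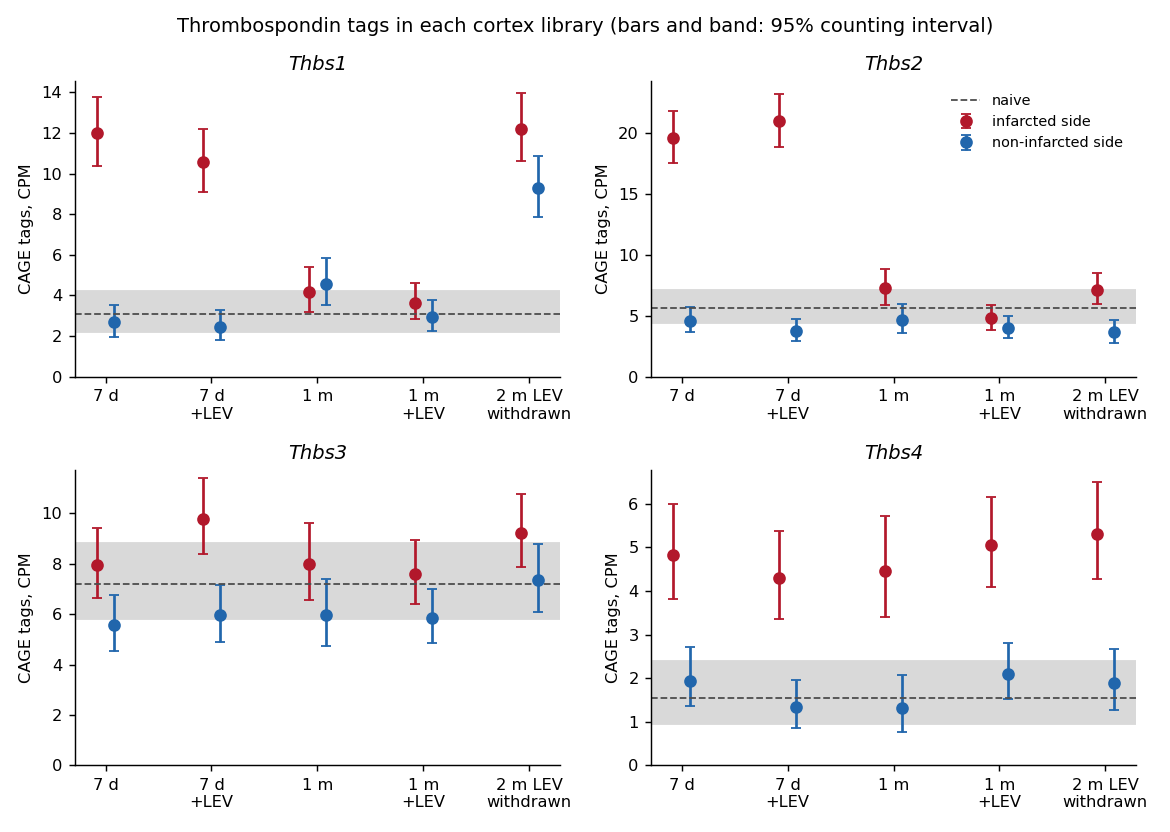
CAGE tags of Thbs1, Thbs2, Thbs3 and Thbs4 in CPM in the infarcted (red) and non-infarcted (blue) library of each state, with exact Poisson 95% counting intervals, and the naive library as a dashed line with its interval as a grey band. Thbs1 lies at 12.2 and 9.29 CPM on the infarcted and non-infarcted side at 2 m, while Thbs4 lies between 4.29 and 5.30 CPM on the infarcted side in every state.

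Thbs1, the platelet and astrocyte thrombospondin, stood in infarcted cortex at 11.99 CPM (7 d), 10.55 CPM (7 d with LEV), 4.17 CPM (1 m), 3.64 CPM (1 m with LEV) and 12.2 CPM (2 m). On the non-infarcted side it was 2.67, 2.45, 4.58, 2.95 and 9.29 CPM in the same order, and it was 3.09 CPM in the naive library. The sides thus stood far apart at 7 d, with ratios of 4.49 (95% interval 3.27 to 6.30) and, with LEV, 4.31 (3.11 to 6.10). At 1 m they did not differ beyond counting error, at 0.910 (0.626 to 1.32) and, with LEV, 1.23 (0.864 to 1.77). At 2 m both libraries were high and the ratio was 1.31 (1.06 to 1.63).

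Ordered by level, Thbs1 split into an upper and a lower set of libraries. The upper set held the infarcted 2 m, 7 d and 7 d LEV libraries and the non-infarcted 2 m library, and no neighbours within it differed beyond counting error. The next step down, from the non-infarcted library at 2 m to that at 1 m, was 2.03-fold (1.504 to 2.77), and below it the neighbours among the other 7 libraries again had intervals that included 1. Libraries further apart within a set could differ. In the upper set the 2 m sides did, at 1.31 (1.06 to 1.63). In the lower set non-infarcted 1 m stood above non-infarcted 7 d without LEV, at 1.71 (1.16 to 2.55). The non-infarcted 2 m library stood 3.002-fold above naive (2.11 to 4.37), whereas the other 4 non-infarcted libraries were 0.790 to 1.48 times naive, with intervals that included 1.

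Thbs2, which encodes a thrombospondin of fibroblasts and healing tissue that limits vessel growth, had the highest single level of the family. Infarcted cortex held 19.6 CPM at 7 d and 20.98 CPM with LEV, then 7.25 CPM and, with LEV, 4.79 CPM at 1 m, and 7.12 CPM at 2 m. The non-infarcted side held 4.61, 4.65 and 3.64 CPM at 7 d, 1 m and 2 m, and 3.72 and 4.0 CPM with LEV at 7 d and 1 m, against 5.65 CPM in naive cortex. Every infarcted library was above every non-infarcted one, but by a narrow margin: the lowest infarcted library, 1 m with LEV, differed from the highest non-infarcted one by less than its counting error, and with TMM factors the sides overlapped, at 4.87 against 4.91 CPM.

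The Thbs2 ratio of the sides was 4.245 (3.33 to 5.47) at 7 d and 5.64 (4.35 to 7.39) at 7 d with LEV. It was 1.56 (1.13 to 2.17) at 1 m, 1.197 (0.881 to 1.63) at 1 m with LEV and 1.96 (1.43 to 2.71) at 2 m. In the order of levels the 2 infarcted 7 d libraries stood 2.70-fold (2.15 to 3.41) above the next library, infarcted at 1 m, and no other neighbouring pair differed beyond counting error. Relative to naive cortex, the non-infarcted libraries were at 0.645 to 0.823, and 3 of these 5 intervals lay below 1, those of both LEV libraries and of the 2 m library.

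Thbs3, a matrix protein best known from cartilage and bone, was 7.96, 9.79, 7.97, 7.60 and 9.23 CPM in infarcted cortex, in the same order of states as above. The non-infarcted values were 5.56, 5.95, 5.96, 5.86 and 7.34 CPM, and naive cortex, at 7.19 CPM, lay below all 5 infarcted and above 4 of 5 non-infarcted libraries. Only the infarcted 7 d LEV library differed from naive beyond counting error, at 1.36 (1.05 to 1.77). The sides did not overlap, nor did they with TMM factors or median centring, yet the step between the nearest libraries of the 2 sides was within counting error. The ratio ran from 1.26 (0.987 to 1.60) at 2 m to 1.64 (1.29 to 2.11) at 7 d with LEV. No neighbouring pair in the order of the 11 levels differed beyond counting error, but libraries further apart did. The side ratio had an interval above 1 at 7 d, 7 d with LEV and 1 m with LEV. At 1 m without LEV and at 2 m the interval included 1.

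Thbs3 lies within the annotated span of Mtx1, a gene of mitochondrial protein import on the opposite strand. The annotated Mtx1 starts reach from 89209664 to 89227088, on both sides of the Thbs3 start at 89215180. The table gives a strand for each gene, but whether tags were counted by strand is not given in the sources used here. Mtx1 was lower in infarcted than in non-infarcted cortex in 4 of 5 states, for example 43.2 against 49.98 CPM at 7 d and 62.8 against 69.9 CPM at 2 m, and higher at 1 m, at 42.7 against 38.9 CPM. On the non-infarcted side both Mtx1 and Thbs3 were highest at 2 m. The part of Mtx1 tags in the Thbs3 levels was not tested.

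Thbs4, the thrombospondin of reactive astrocytes, was the lowest of the 4 in naive and in every non-infarcted library. In infarcted cortex it was 4.82, 4.29, 4.45, 5.05 and 5.30 CPM over the 5 states, against 1.95, 1.33, 1.31, 2.10 and 1.88 CPM on the other side and 1.55 CPM in naive cortex. The sides did not overlap, and the step between them, from infarcted 7 d with LEV to non-infarcted 1 m with LEV, was 2.05-fold (1.39 to 3.04). It was the only neighbouring step in the order of the 11 levels to exceed counting error.

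The Thbs4 ratio of the sides was 2.48 (1.65 to 3.80) at 7 d, 3.23 (2.03 to 5.30) at 7 d with LEV, 3.41 (1.99 to 6.12) at 1 m, 2.41 (1.67 to 3.52) at 1 m with LEV and 2.82 (1.86 to 4.38) at 2 m. All 5 intervals overlap, so no trend over the states was detectable at this depth, where the non-infarcted libraries held 18 to 44 tags. Each infarcted library was 2.77 to 3.43 times naive with an interval above 1, and each non-infarcted library was 0.845 to 1.35 times naive with an interval that included 1.

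**Figure D2:**
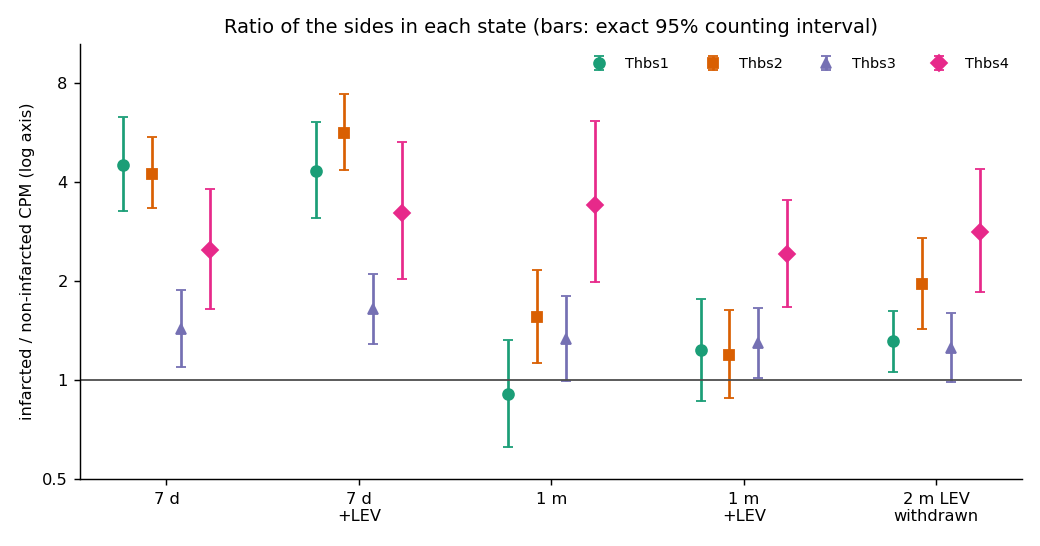
Ratio of infarcted to non-infarcted CPM for each thrombospondin in each of the 5 states on a log axis, with exact 95% counting intervals. Thbs1 and Thbs2 lie at 4.245 to 5.64 at 7 d and at 0.910 to 1.96 later, whereas Thbs4 stays between 2.41 and 3.41.

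Counted against all expressed genes, which averaged 1 CPM or more over the compared libraries, the members were at least 2-fold higher on the infarcted side in 3 of 4 cases at 7 d, where 7.06% of genes were, and in 3 of 4 at 7 d with LEV, where 7.56% were. Only Thbs4 passed 2-fold at 1 m (3.52% of genes), at 1 m with LEV (1.08%) and at 2 m (3.83%). Thbs2, Thbs3 and Thbs4 had all 5 infarcted libraries above all 5 non-infarcted ones, as did 3.23% of genes. On the log2(CPM + 1) scale, the mean side difference over the 5 states was 0.81 ± 0.91 (SD, n = 5 states) for Thbs1, 1.13 ± 0.87 for Thbs2, 0.41 ± 0.14 for Thbs3 and 1.10 ± 0.12 for Thbs4. That scale understates low genes such as Thbs4, whose mean was 1.38 with a pseudocount of 0.25.

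The summed family was 17.5 CPM in naive cortex. In infarcted cortex it reached 44.4 and 45.6 CPM (7 d, without and with LEV), 23.8 and 21.1 CPM (1 m) and 33.9 CPM (2 m), against 13.5 to 22.2 CPM on the non-infarcted side. Its make-up shifted with the state. Thbs3 had the largest share of the naive tags, at 41.2% (exact binomial 95% interval 34.7 to 47.9), which overlapped that of Thbs2, at 32.3% (26.3 to 38.8). Thbs2 led on the infarcted side at 7 d with 44.2% (40.5 to 47.8) and at 7 d with LEV with 46.0% (42.5 to 49.5), and Thbs1 led at 2 m with 36.03% (32.2 to 40.0) on the infarcted and 41.9% (36.8 to 47.2) on the non-infarcted side, where Thbs3 overlapped it at 33.2% (28.3 to 38.2). At 1 m Thbs3 held the largest share on both sides, with and without LEV, though without LEV its interval overlapped that of Thbs2. On the non-infarcted side without LEV it also overlapped that of Thbs1, at 36.1% (29.9 to 42.7) for Thbs3 and 27.8% (22.0 to 34.1) for Thbs1.

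**Figure D3:**
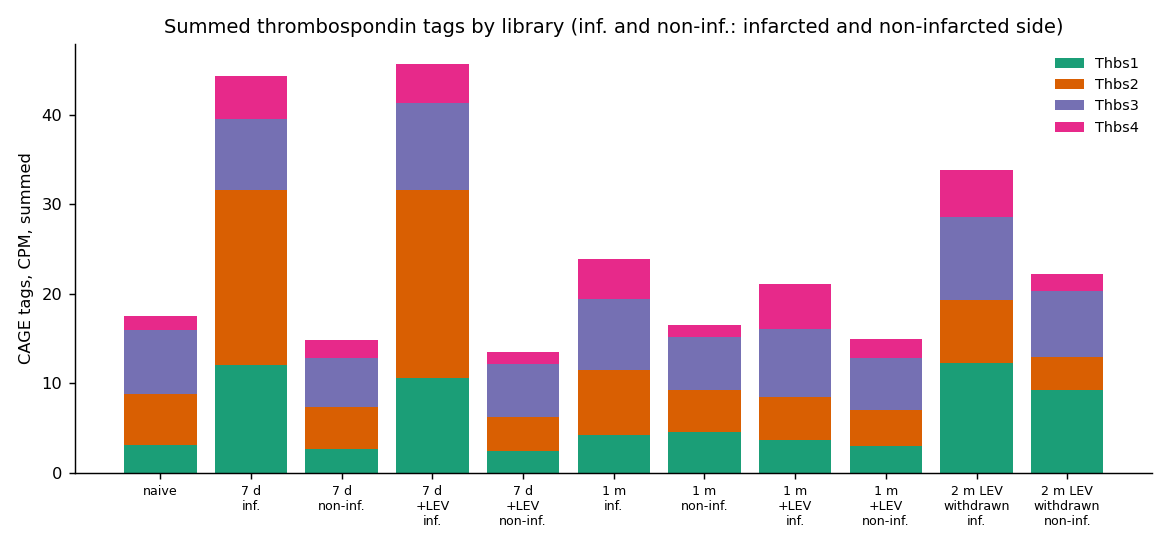
Stacked bars of the CPM of the 4 thrombospondins in each of the 11 libraries, in the order naive and then infarcted and non-infarcted for each state. The tallest bars are the infarcted 7 d libraries, at 44.4 and 45.6 CPM, and the non-infarcted libraries stay between 13.5 and 22.2 CPM.

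From 7 d to 1 m on the infarcted side Thbs1 and Thbs2 were lower by more than 2-fold, both without and with LEV. The Thbs1 ratio of 1 m to 7 d was 0.347 (0.255 to 0.467) without LEV and 0.346 (0.258 to 0.458) with it. For Thbs2 it was 0.370 (0.293 to 0.464) and 0.228 (0.180 to 0.288). Thus 2 of 4 members were at least 2-fold lower in each pair, as were 4.23% of genes without LEV and 7.11% with LEV. Thbs3, at 1.002 (0.771 to 1.30) and 0.776 (0.618 to 0.974), and Thbs4, at 0.923 (0.652 to 1.30) and 1.18 (0.861 to 1.62), stayed within 2-fold. On the non-infarcted side the only interval to leave 1 over this step was that of Thbs1 without LEV, at 1.71 (1.16 to 2.55), beside 1.21 (0.811 to 1.81) with it.

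Levetiracetam left the family within 2-fold in all 4 pairs of libraries, so 0 of 4 members passed in either direction. The share of all genes past 2-fold was 0.779% on the infarcted and 0.841% on the non-infarcted side at 7 d, and 3.11% and 1.74% at 1 m. With shares this low, most sets of 4 genes would also have 0 past 2-fold. Thbs1 was 0.879 and 0.875 times the undrugged level on the infarcted side at 7 d and 1 m, and 0.916 and 0.645 times on the other side. Only the last had an interval below 1 (0.447 to 0.931), and the other 3 intervals included 1. Thbs2 on the infarcted side at 1 m, at 0.660 (0.492 to 0.885), was the other value whose interval excluded 1. With 1 library per group these ratios have no replicate check, and the 1 m LEV libraries are those with the high excitatory neuron sums. Between the infarcted 1 m libraries without and with LEV, fibroblast markers went from 262 to 71.6 CPM and macrophage markers from 215 to 65.2 CPM. The part of these differences in the ratios was not tested.

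Between 1 m with LEV and 2 m with LEV withdrawn, Thbs1 was higher on both sides by about the same factor. It went from 3.64 to 12.2 CPM on the infarcted side, a ratio of 3.35 (2.54 to 4.45), and from 2.95 to 9.29 CPM on the other, a ratio of 3.15 (2.33 to 4.30). It was the 1 member of 4 to pass 2-fold in each, beside 3.27% of genes on the infarcted and 3.11% on the non-infarcted side, and 1.08% of genes passed on both. Thbs2 was at 1.49 (1.13 to 1.97) on the infarcted and 0.911 (0.643 to 1.28) on the non-infarcted side. Thbs3 was at 1.21 (0.965 to 1.53) and 1.25 (0.968 to 1.63), and Thbs4 at 1.05 (0.781 to 1.41) and 0.898 (0.548 to 1.45). Time since the stroke, withdrawal of the drug and the preparation of these libraries cannot be told apart, since there is no 2 m library without LEV.

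Between 1 m with LEV and 2 m, 7 of 49 genes with a known tie to thrombospondins also passed 2-fold on both sides, beside 1.08% of expressed genes. They include the proteases Adamts1, which cleaves Thbs1 and Thbs2 proteins, at 6.51 and 6.24 CPM at 1 m with LEV and 15.7 and 14.3 CPM at 2 m on the infarcted and non-infarcted side, and Adamts4, at 9.79 and 8.81 CPM and then 20.6 and 19.8 CPM. Mmp2, the matricellular gene Tnc and the scar genes Col1a1, Col3a1 and Bgn are the others. Col1a1 was 20.9 and 16.0 CPM and then 64.5 and 37.8 CPM, but it was 146.8 CPM in infarcted cortex at 1 m without LEV. In that library Col3a1 was 31.1 CPM, against 11.7 CPM in infarcted cortex at 2 m. The other genes of the 7 were lower in that library than in infarcted cortex at 2 m. The non-infarcted 2 m library is also the one with the lowest share of tags in genes, and the part of this in its Thbs1 level was not tested.

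The 49 genes were grouped by role, and 47 of them passed the expression limit of the side test. Since these lists too were chosen with earlier results of these data known, their counts and p-values are a description. That test, limma over the 5 states with Benjamini-Hochberg adjustment over all genes, called 6.21% of 16229 genes higher and 0.789% lower on the infarcted side, so that 88.7% of its calls were higher, against 71.3% with TMM factors and 69.1% with median centring. In the 6 role lists 17 of 47 genes rose and 0 fell, with 0 lower also at an unadjusted p under 0.05 and in edgeR, which called 17 higher. With median centring 15 were called higher and 2 were lower at an unadjusted p under 0.05, and with TMM factors 14 and 1. Leaving out 1 m left 0 of the 47 called, and leaving out 7 d or 7 d with LEV left 2 each, against 19 without 1 m LEV and 21 higher and 1 lower without 2 m.

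**Figure D4:**
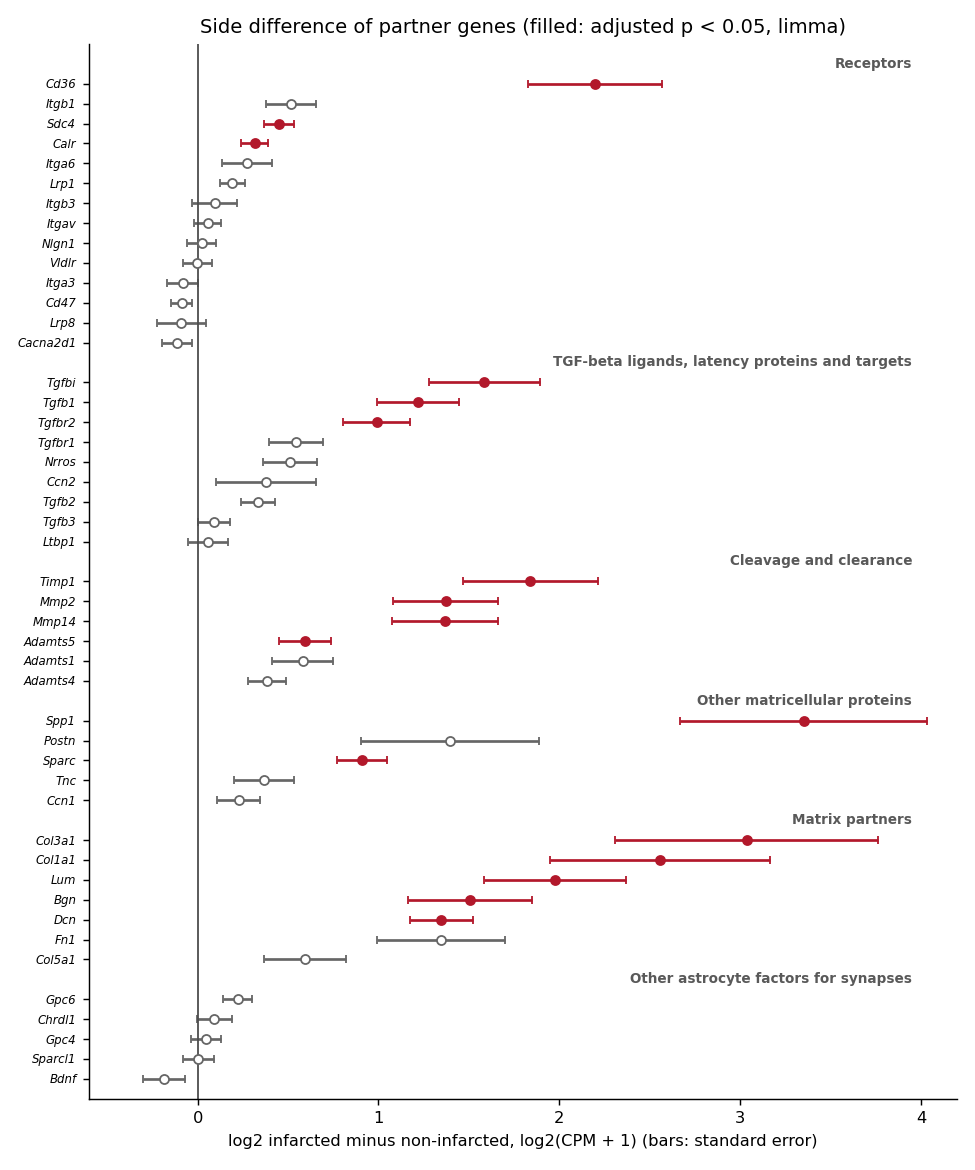
Mean log2 difference, infarcted minus non-infarcted, of 46 of the 47 partner genes tested, on the log2(CPM + 1) scale, grouped by role, with standard errors from limma; filled points have an adjusted p under 0.05. The largest differences are those of Spp1 (3.35), Col3a1 (3.04) and Col1a1 (2.56), and the 5 other astrocyte factors lie between −0.19 and 0.22.

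Of 14 receptors of thrombospondins tested, 3 rose, beside 6.21% of all genes tested, and the median log2 difference of the list was 0.08, beside 0.01 over all genes. Cd36, the scavenger receptor through which Thbs1 acts on vessels and phagocytes, rose by a log2 of 2.19 (adjusted p = 0.0146), from 0.585 to 1.83 CPM on the non-infarcted side to 1.41 to 17.2 CPM. Sdc4, a heparan sulfate syndecan, rose by 0.45 (adjusted p = 0.0177), and Calr, calreticulin, which pairs with Lrp1 to receive Thbs1, rose by 0.32 (adjusted p = 0.0396; 0.0519 with median centring). Cacna2d1, the synaptogenic receptor, was at −0.11 (standard error 0.08; adjusted p = 0.449), with 77.4 to 111.6 CPM on the infarcted and 98.3 to 111.7 CPM on the other side. Cd47, which sends the do-not-eat-me signal and binds Thbs1, was at −0.09 (adjusted p = 0.387), and the endocytic receptor Lrp1 at 0.19 (adjusted p = 0.137). The beta-1 integrin gene Itgb1 was at 0.52 (adjusted p = 0.0572) and higher in 5 of 5 states. Itga6 was at 0.27, Itgb3 at 0.10 and Itgav at 0.06, while the reelin receptor genes Lrp8 and Vldlr were at −0.09 and −0.00, the neuroligin gene Nlgn1 at 0.02 and Itga3 at −0.08, and none of these was called.

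In the TGF-beta list, whose latent ligand Thbs1 can activate, 3 of 10 genes rose, with a median of 0.53. Tgfb1, the ligand, rose by 1.22 (adjusted p = 0.0186), with 14.3 to 41.7 CPM on the infarcted and 7.81 to 13.9 CPM on the non-infarcted side. Tgfbr2, its binding receptor, rose by 0.99 (adjusted p = 0.019) and the target gene Tgfbi by 1.58 (adjusted p = 0.0206). Tgfbr1 at 0.54 (adjusted p = 0.0629), Tgfb2 at 0.33 (adjusted p = 0.0633) and the microglial latency protein gene Nrros at 0.51 (adjusted p = 0.0759) were not called, though each was higher in 5 of 5 states. Tgfb3 at 0.09 and Ltbp1 at 0.06 were not called either. Nor was Ccn2 at 0.38, which was higher in 3 of 5 states. It was 8.68 CPM in the non-infarcted 2 m library and 32.9 to 40.0 CPM in all other libraries.

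Among genes for cleavage and clearance of thrombospondins 4 of 6 tested rose, with a median of 0.98. They are Timp1, an inhibitor of metalloproteinases, at 1.84 (adjusted p = 0.0243), the gelatinase Mmp2 at 1.37 (adjusted p = 0.0275), its activator Mmp14 at 1.37 (adjusted p = 0.028) and the aggrecanase Adamts5 at 0.59 (adjusted p = 0.0433). The Adamts5 call was lost with TMM factors (adjusted p = 0.0533) and with median centring (adjusted p = 0.0553). Adamts1 at 0.58 (adjusted p = 0.0729) and Adamts4 at 0.38 (adjusted p = 0.0633) were higher in 5 of 5 states and were not called. Mmp9 lay below the limit.

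The 3 largest differences were those of Spp1, Col3a1 and Col1a1, in the matrix and matricellular lists. Of 7 matrix partners 5 rose, with a median of 1.51: the fibrillar collagens Col3a1 at 3.04 and Col1a1 at 2.56, and the small proteoglycans Lum at 1.98, Bgn at 1.51 and Dcn at 1.35 (adjusted p = 0.0396, 0.039, 0.0227, 0.0337 and 0.0076). With TMM factors 3 were called, since Col1a1 and Col3a1 stood at adjusted p = 0.0511 and 0.0514. Fn1, fibronectin, at 1.35 (adjusted p = 0.055), and Col5a1, at 0.59 (adjusted p = 0.154), were not called. Of 5 other matricellular genes tested, Spp1, osteopontin, rose by 3.35 (adjusted p = 0.0247) and Sparc by 0.91 (adjusted p = 0.0116), whereas Postn at 1.39 (adjusted p = 0.129), Tnc at 0.37 (adjusted p = 0.217) and Ccn1 at 0.23 (adjusted p = 0.287) were not called. The rows of Gm42793 and Gm47302 carry the tags of Spp1 and Col3a1, and neither pair can be separated. Comp, the remaining gene of the thrombospondin family, was at 0.145 to 0.542 CPM and below the limit.

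The other astrocyte factors for synapses held 0 called genes of 5 in limma, with 1 at an unadjusted p under 0.05, and 0 in edgeR. Sparcl1, which encodes hevin, was at 0.00 (standard error 0.09; adjusted p = 0.989; −0.06 with median centring), with 913 to 1535 CPM on the infarcted and 895 to 1408 CPM on the non-infarcted side. The glypicans Gpc4 at 0.05 and Gpc6 at 0.22 (adjusted p = 0.145), the AMPA receptor maturation factor Chrdl1 at 0.09 and the neurotrophin Bdnf at −0.19 were not called. Without the 2 m libraries 1 of the 5 was called, and it was lower.

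The lists followed different courses over the states. In the same order of states, the matrix partners had a median side difference of 2.44, 2.96, 1.45, 0.36 and 0.76, and the cleavage list one of 1.62, 1.78, 1.002, 0.25 and 0.42. The side difference of Thbs2 was 1.87, 2.22, 0.55, 0.21 and 0.81 on the same log2(CPM + 1) scale, and that of Thbs4 was 0.98, 1.18, 1.24, 0.97 and 1.13. The receptor list stayed at 0.02 to 0.32 and all genes tested at −0.05 to 0.06.

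Some cell type markers differed between the same libraries as the members, and others did not. The 5 fibroblast markers in infarcted cortex summed to 1062 and 1209 CPM (7 d, without and with LEV), 262 and 71.6 CPM (1 m) and 152.5 CPM (2 m), while non-infarcted cortex had 53.9 to 124 CPM and naive cortex 67.8 CPM. Of these 5, Col1a1, Col3a1, Dcn and Lum are also matrix partners above. Astrocyte markers summed to 758 to 1122 CPM on the infarcted and 394 to 655 CPM on the non-infarcted side, mostly through Gfap. Aqp4 (31.7 to 48.4 against 20.3 to 30.1 CPM) and Gja1 (77.3 to 163 against 58.6 to 121 CPM) were also higher on the infarcted side in every state. Slc1a3 was 287 CPM on both sides at 7 d and higher on the infarcted side in the other states, for example 324 against 216 CPM at 2 m. Aldh1l1 was 17.6 to 27.3 CPM against 14.3 to 27.8 CPM, with neither side higher throughout. The macrophage markers summed to 555 and 502 CPM at 7 d without and with LEV and to 65.2 to 215 CPM later on the infarcted side, against 14.2 to 20.1 CPM on the other, and microglial markers to 468 to 1194 against 287 to 345 CPM. The 4 platelet markers in the table summed to 57.8 and 47.7 CPM in the infarcted 7 d libraries without and with LEV. Of this, Pf4 made up 34.9 and 27.6 CPM, against 4.503 and 4.89 CPM on the non-infarcted side. Itga2b was 5.91 and 5.97 CPM against 4.503 and 4.997 CPM. Gp1bb was lower on the infarcted side, at 16.997 and 14.14 CPM against 18.12 and 16.32 CPM. Gp9 had no tags in these infarcted libraries. At 2 m the sum was 26.8 CPM on the infarcted and 34.4 CPM on the non-infarcted side. Both lay within the 23.1 to 39.1 CPM of the remaining libraries. Endothelial markers summed to 70.8 to 147 CPM and skeletal muscle markers to 2.38 to 14.8 CPM. Pericyte and smooth muscle markers summed to 97.4 to 204.9 CPM on the infarcted and 85.6 to 169 CPM on the other side. None of these lists had a marker at or under 3 tags in every library, and their part in the thrombospondin levels was not tested.

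The genes most like each member over the 11 libraries differed between the members. Likeness was Pearson's r of log2(CPM + 1), ranked over 11772 genes (11773 for Thbs4) averaging 5 CPM or more, given as a description, since all points share the split between the sides and the libraries. For Thbs1 they were the monocyte chemokine Ccl2 (r = 0.941), the collagen-modifying P3h3 (0.936), the transcription factor Sox4 (0.929), the G protein subunit Gng12 (0.926) and the microglial marker Tmem119 (0.925). Ccl2 was 11.4 and 8.74 CPM on the infarcted and non-infarcted side at 2 m, and 0.723 to 1.45 CPM in the naive and other non-infarcted libraries.

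For Thbs2 the most like genes were the metalloprotease Adam12 (r = 0.981), the macrophage scavenger receptor Stab1 (0.977), Fxyd5 (0.977), the fibril-associated collagen Col12a1 (0.976) and the galactosyltransferase B4galt1 (0.974). Adam12 was 16.8 and 17.1 CPM in the infarcted 7 d libraries without and with LEV and 3.77 to 7.40 CPM in the other 9 libraries. For Thbs3 they were Spata13 (0.946), the mesenchymal secreted protein gene Islr (0.937), the mitochondrial protease Oma1 (0.930), the hedgehog pathway factor Gli3 (0.929) and the nucleoside transporter Slc29a3 (0.906).

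For Thbs4 they were the complement gene C4b (r = 0.974), the astrocyte filament Gfap (0.969), the myelin claudin Cldn11 (0.959), the protease inhibitor A2m (0.952) and Dock10 (0.943). C4b was 36.9 to 50.7 CPM on the infarcted side and 8.61 to 18.8 CPM on the other, and Gfap 384 to 615 against 107 to 199 CPM. Between the members themselves r ran from 0.581 for Thbs1 and Thbs4 to 0.788 for Thbs3 and Thbs4.

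**Figure D5:**
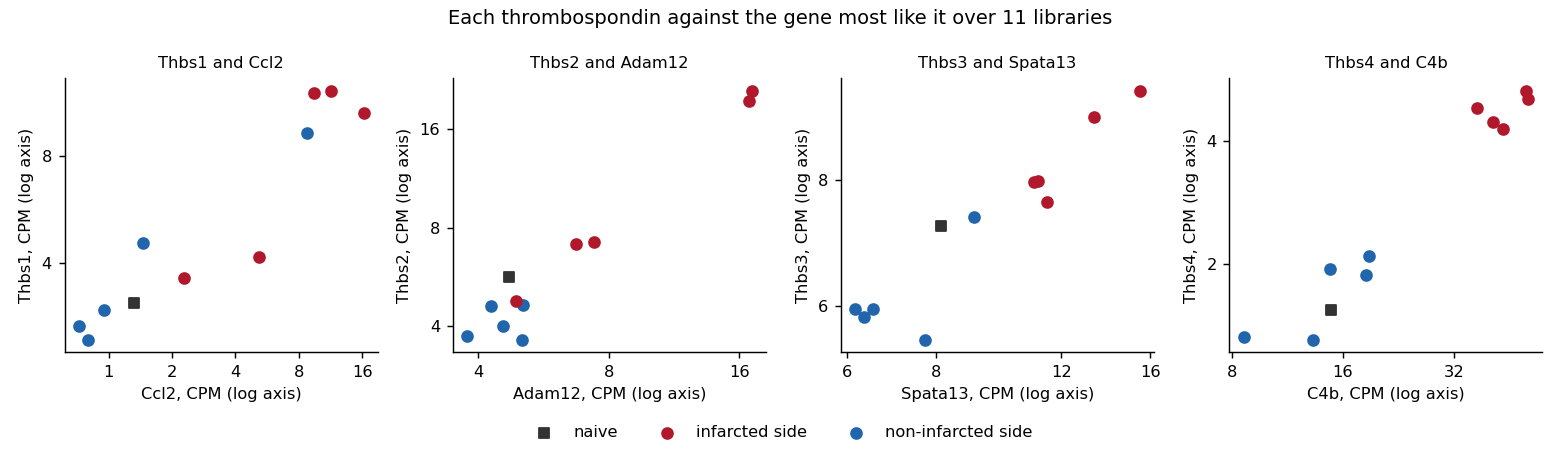
CPM of each thrombospondin against the gene most like it, on log axes, with 1 point per library: naive (black square), infarcted (red) and non-infarcted (blue). In the Thbs1 panel 1 non-infarcted library, that of 2 m, lies among the infarcted ones, and in the Thbs4 panel the 5 infarcted libraries lie apart from the other 6.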

How the data were processed

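The authors deposited CPM, tags scaled to each library's total, for 22377 genes in 11 CAGE libraries of mouse cortex; per the labels' protocols, cDNA was made from total RNA with random primers and selected by cap trapping. GRCm38 and the tools DESeq2 1.20.0, HISAT2 2.0.5 and BWA 0.7.17 appear, with no role given, per the submitters' processing notes, and the counting rule and annotation are not given in the sources used here. All values (100%) were whole tags within 0.01, so tags and library totals were recovered. Single libraries were compared by the ratio of CPM with an exact conditional 95% interval on tags, for 20 pairs per member besides the 5 side ratios. Genes past 2-fold were counted among those averaging 1 CPM or more over the compared libraries, a tag count under 3 being set to 3.

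The side was tested on log2(CPM + 1) in 16229 genes with limma 3.58.1 (moderated test with mean-variance trend, states as factor levels, leaving 4 residual degrees of freedom) in R 4.3.3, p-values adjusted by Benjamini-Hochberg over all genes and called under 0.05. The 5 states stand as repeats of the contrast, so p-values describe the spread between these libraries, which need not be that between mice. edgeR 4.0.16 on the recovered tags, which called 1281 genes against 1136, other scalings, limits and pseudocounts, and leaving out each state were alternatives. The fits were tested on simulated data. Members, role lists and marker lists were chosen with earlier results of these data known. Named genes are the members, the genes of the role lists (1 tested gene is counted but not reported here), the 5 genes most like each member and genes near a member's start. Identifiers were matched to GENCODE M21 for 22335 genes (99.8%). Python 3.11.15, pandas 2.3.3, numpy 2.4.6, scipy 1.17.1 and matplotlib 3.10.9 were used.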

Additional observations from a re-analysis of the deposited data

Results flagged for a closer look

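From 7 d to 1 m the point estimates of Thbs1 and Thbs2 were lower on the infarcted and higher on the non-infarcted side, both without and with LEV. The mean log2(CPM + 1) change of Thbs1 was −1.32 on the infarcted and 0.40 on the non-infarcted side, a difference of −1.72. For Thbs2 it was −1.62 and 0.05, a difference of −1.67. Both differences were not tested, since each time point has 1 library per side and drug state, and the non-infarcted change lay within counting error in both pairs for Thbs2 and in the LEV pair for Thbs1.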

How the results depend on the processing

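Over pseudocount, scaling and left-out states, 31 of 32 recomputed side differences of the members stayed within 1 SD over states and kept their sign. The exception was Thbs4 with a pseudocount of 0.25, at 1.38 in place of 1.10. Most of the 32 leave out a state, and these could not have failed. Dropping 1 state moves a mean by well under 1 SD over states. Each member's mean exceeded any such shift, so its sign was fixed too. Only the values with another pseudocount or scaling were free to move past the limit. All 160 member ratios recomputed with TMM factors or median centring stayed inside their counting intervals. These could not have failed either, since scaling shifted no library by more than 0.105 on the log2 scale. Opposite shifts of that size in both libraries of a pair would not leave even the narrowest interval. That was the interval of Thbs2 for LEV at 7 d on the infarcted side, 0.919 to 1.25 around 1.07. Leaving out each state in turn gave 0.56 to 1.04 for Thbs1, 0.86 to 1.36 for Thbs2, 0.36 to 0.44 for Thbs3 and 1.07 to 1.13 for Thbs4.

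Over all genes 1136 were called between the sides, 732 with a mean CPM of at least 5, 245 without the state factor, and 71 to 1288 with a state left out. Leaving out a state gave 0 to 3 receptors, 0 to 5 TGF-beta genes, 0 to 5 cleavage genes, 0 to 2 matricellular genes, 0 to 6 matrix partners and 0 to 1 other astrocyte factors. Without the state factor these were 1, 1, 1, 0, 2 and 0. Matrix partners numbered 3 with TMM factors and 2 with no expression limit, and cleavage genes 2 at a mean CPM of at least 5, which leaves 4 of them tested. Among single partner genes 480 of 557 recomputed results kept their side of the threshold, 69 lost a call and 8 gained one. In 18 of the 557 the sign changed, in genes not called in either fit (Nlgn1, Itgav, Ltbp1, Sparcl1, Gpc4, Vldlr, Lrp8 and Ccn2). With median centring, which moves all genes of a library by the same amount, Nlgn1 went to −0.04 and Sparcl1 to −0.06. Itgav, Ltbp1 and Gpc4 changed sign there too. Lrp8 changed sign without 1 m, to 0.08, and Vldlr without 7 d, to 0.06. The largest shift of a library by scaling was 0.10 on the log2 scale, against a median side difference of 0.01 over all genes. The fit reported pairs the 2 sides within each state, and the labels give no replicate numbers to pair by. Depth limits Thbs4 most, with 18 to 97 tags a library.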
